A study of Mus musculus with 12 samples.

Results

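In mouse hearts that held both parts of a CRISPR activation system aimed at Mef2d, 64 of the 24390 gene symbols in the table were low in the control libraries and higher in every library with both components. They were chosen from these same values. A gene was taken when its mean over the 9 control libraries was under 50 normalized counts, its mean over the 3 libraries with both components was at least 20 and at least 3 times the control mean, and each of those 3 values lay above the highest control value. The thresholds alone gave 72 genes, and 8 were set aside by name, namely Atp1b4, Ccno, Col22a1, Edn3, Kcnj4, Kcnn3, Nmrk2 and Ryr1. The contrast that chose the 64 genes is therefore described below and not tested.

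All 12 libraries came from total RNA of cardiac ventricles of C57BL/6 mice aged 8 weeks, with 3 libraries in each of 4 groups. TG_AAV hearts carried the Myh6-dCas9VPR transgene and received the AAV9 vector that the labels call TRISPR Mef2d. TG_saline hearts carried the same transgene and received saline, WT_AAV hearts were wild type and received the vector, and WT_saline hearts were wild type and received saline. The transgene encodes a Cas9 that cannot cut DNA, joined to the VPR activation domains and driven by the Myh6 promoter, which is active in heart muscle cells and not in the other cells of the ventricle. The vector was taken to carry the guide RNAs, whose sequences are not used here. The last 3 groups are the 9 control libraries.

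Mef2d encodes a MADS-box transcription factor that binds A/T-rich sites in muscle and neuronal genes, and VPR recruits the transcription machinery to wherever guide RNAs bring the dead Cas9. Several of the genes with large ratios, among them Kndc1, B3gat1, Clstn3, Itpka and Pacsin1, code for proteins known from neurons. Such proteins take part in cell adhesion at synapses, in the recycling of synaptic vesicles, in the actin of dendritic spines and in the glycans of the neuronal surface. Mef2d itself averaged 2039 ± 173 normalized counts in TG_AAV hearts (SD, n = 3) and 975 ± 136 in the 9 control libraries (SD, n = 9), a ratio of 2.09. An exact permutation test between these libraries, two-sided, gave p = 0.00455, the smallest it can give.

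Depth ran from 10233281 to 14911986 reads per library, and libraries of a group differed by more than counting noise. The labels give no batch, date or animal, so each p-value reflects how these samples vary, and part of that variation may be technical. The atrial light chain Myl7 was at 728 normalized counts in TG_saline 1, 4.42 in TG_saline 2 and 258 in TG_saline 3, and at most 8.88 in WT_saline. TG_saline 1 and TG_saline 3 thus lay above all WT_saline libraries in this marker and TG_saline 2 did not. The part of Myl7-rich tissue in the comparison of TG_saline with WT_saline was not tested. Myl7 was above 1000 in 3 libraries, namely TG_AAV 1, WT_AAV 1 and WT_AAV 3. Without those 3 libraries the same thresholds gave 68 genes, 57 of them among the 64, and without WT_saline 3, WT_AAV 2 and WT_AAV 3, which an earlier analysis of these data set apart from the other wild-type libraries, they gave 58, of which 54 were among the 64. Without TG_saline 3, the highest control for 15 genes, they gave 74. The transcript Xist, made by the inactive X chromosome of female cells, was at 7415 to 16834 normalized counts in 5 libraries and at most 16.6 in the other 7. The 5 are TG_AAV 3, TG_saline 1, WT_AAV 3, WT_saline 1 and WT_saline 3, so the groups differ in their number. The genes Bex1, Pdzd4, Slitrk4 and Tceal7 lie on chromosome X. With a term for this split, added after the data had been seen, limma called none of the tested genes among the 64 for the transgene or the vector alone, as without it.

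Promoters of 4 leading genes are shown because the windows differ in base composition. Kndc1 and B3gat1 were close to 0 in the controls, and Pdzd4 and Itpka were low but present. The sequences are from RefSeq on GRCm38.p6 and run from 250 bases before to 50 bases after the annotated start, 5′ to 3′ on the gene's strand. Capitals mark the GC box GGGCGG on either strand. The Kndc1 promoter lies at chr7:139894446-139894745 on the plus strand, that of B3gat1 at chr9:26751312-26751611 on the plus strand, that of Pdzd4 at chrX:73824920-73825219 on the minus strand and that of Itpka at chr2:119742087-119742386 on the plus strand.
Kndc1: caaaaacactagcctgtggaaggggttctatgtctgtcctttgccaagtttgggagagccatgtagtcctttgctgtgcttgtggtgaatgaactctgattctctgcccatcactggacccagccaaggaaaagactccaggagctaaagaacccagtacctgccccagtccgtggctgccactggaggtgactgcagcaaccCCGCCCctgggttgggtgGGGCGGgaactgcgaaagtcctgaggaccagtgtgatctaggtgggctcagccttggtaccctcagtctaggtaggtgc
B3gat1: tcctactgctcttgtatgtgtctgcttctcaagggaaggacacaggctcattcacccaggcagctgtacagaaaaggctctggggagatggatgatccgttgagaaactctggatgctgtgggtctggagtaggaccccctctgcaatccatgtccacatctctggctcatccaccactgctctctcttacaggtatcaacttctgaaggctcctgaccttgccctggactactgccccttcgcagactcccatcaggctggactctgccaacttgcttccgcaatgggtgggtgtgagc
Pdzd4: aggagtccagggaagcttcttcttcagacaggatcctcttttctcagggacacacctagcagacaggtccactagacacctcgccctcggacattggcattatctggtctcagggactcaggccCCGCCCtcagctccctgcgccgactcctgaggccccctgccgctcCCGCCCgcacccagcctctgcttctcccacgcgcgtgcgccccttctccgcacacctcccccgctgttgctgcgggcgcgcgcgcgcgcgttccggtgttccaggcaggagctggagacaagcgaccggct
Itpka: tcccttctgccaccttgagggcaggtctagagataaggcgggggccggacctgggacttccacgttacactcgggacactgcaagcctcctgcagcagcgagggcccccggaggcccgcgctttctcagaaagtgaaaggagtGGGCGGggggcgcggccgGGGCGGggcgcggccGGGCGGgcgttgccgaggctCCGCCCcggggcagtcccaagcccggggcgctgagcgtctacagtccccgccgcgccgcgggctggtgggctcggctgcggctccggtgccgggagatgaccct
The Kndc1 window held 4 CpG dinucleotides and 2 GC boxes, and that of B3gat1 held 3 CpG and no GC box. The Pdzd4 window held 25 CpG and 2 GC boxes, and that of Itpka held 33 CpG and 4 GC boxes. Over all 52 of the 64 genes with a RefSeq promoter, the median was 15 CpG in 63 promoters, against 20 in the promoters of all tested genes. The 4 windows were picked, and their order by control level does not hold for all genes. Jph3, with a control mean of 2.30, had 34 CpG, and Apod, with a control mean of 42.8, had 4. A link between control level and CpG number was not tested.

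None of the 63 promoters held the MEF2 consensus on either strand, which 1.97% of the promoters of tested genes and 3.19% of all 32851 promoters held. The E-box CANNTG, which reads the same on both strands, was in 61.9% of the 63 promoters and in 64% of those of tested genes. The GC box GGGCGG was in 65.1% and 61.7% and the TATA motif TATAAA in 4.76% and 7.28%, both strands searched. A match is a description of the letters in this window, and a missing match says nothing about binding outside it.

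The 64 genes were lifted to a range of levels rather than from silence. Their median was 62.0 normalized counts in TG_AAV hearts and 11.5 in the controls, and the median ratio of the means was 4.90, from 3.04 to 604. In the controls 4 genes had a mean under 1, 14 a mean under 5 and 45 a mean under 20, while 51 had at least 1 read in every control library. In TG_AAV hearts 20 genes reached a mean of 100 and 5 reached 200. The words "switched on" thus describe the 4 genes Kndc1, B3gat1, Plekhg6 and Gabra4, which had no read in at least 5 of the 9 control libraries, and the other 60 had reads in most control libraries.

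**Figure D1:**
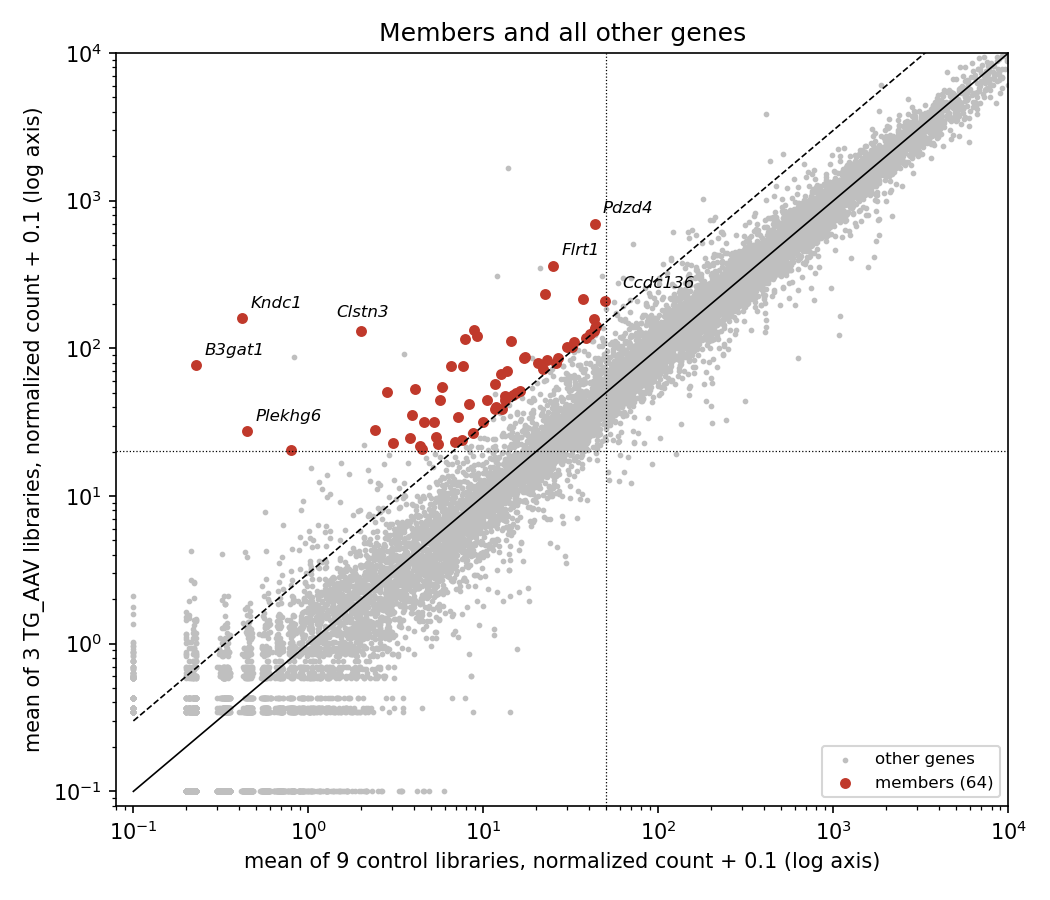
Mean normalized count plus 0.1 of each gene in the 3 TG_AAV libraries (vertical, log axis) against that in the 9 control libraries (horizontal, log axis), with the 64 genes in red and all others in grey, among them the 8 set aside by name. The solid line is equality, the dashed line 3 times the control value, and the dotted lines the thresholds of 50 and 20. Kndc1 and B3gat1 stand far to the left, while Pdzd4 is the highest of the red points and Ccdc136 lies just inside the threshold of 50.

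The summed level of the 64 genes was 5304, 5912 and 5917 normalized counts in the 3 TG_AAV libraries, which is 0.0488%, 0.0541% and 0.0565% of each library. It was 1103, 1225 and 1404 in TG_saline, 969, 856 and 986 in WT_AAV and 747, 816 and 853 in WT_saline. The TG_saline sums lay above those of both wild-type groups, while the lowest WT_AAV sum and the highest WT_saline sum nearly met. The rule treats the 9 control libraries alike.

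Kndc1, a guanine nucleotide exchange factor for Ras known to restrain dendrite growth, had 123, 183 and 175 normalized counts in TG_AAV hearts, against a lowest value of 0, a median of 0 and a highest of 1.81 in the controls. Its ratio of depth-corrected reads was 448, with a 95% exact interval of 152 to 2178. The interval covers counting error only, and it is wide because the controls held 3 reads in all. B3gat1 is a glucuronyltransferase that acts in making the HNK-1 glycan of neural adhesion molecules. It had 47.4, 99.6 and 83.5 in TG_AAV hearts and at most 1.15 in the controls, where 8 of 9 libraries had no read. Both genes were separated from every control by more than an order of magnitude, and TG_AAV 1 was the lowest TG_AAV library for both. The B3gat1 ratio rests on a single control read, so it is known only as 634 with an interval of 113 to 25140.

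Clstn3 encodes calsyntenin-3, a cadherin-family adhesion protein of the postsynaptic membrane. It had 135, 113 and 143 normalized counts in TG_AAV hearts, with a lowest value of 0, a median of 2.17 and a highest of 3.45 in the controls, and the means were 130 ± 15.8 (SD, n = 3) and 1.90 ± 1.18 (SD, n = 9). The 3 TG_AAV libraries were close to each other and all of the controls were near 0. Its relatives were different in level: Clstn1 averaged 1813 ± 85.7 in TG_AAV and 1534 ± 69.9 in the controls, and Clstn2 18.8 ± 3.62 and 20.6 ± 2.89.

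Itpka phosphorylates inositol trisphosphate and bundles actin in dendritic spines. It had 99.2, 160 and 138 normalized counts in TG_AAV hearts, against a lowest value of 3.33, a median of 8.02 and a highest of 15.5 in the controls, with means of 132 ± 30.9 (SD, n = 3) and 8.79 ± 4.24 (SD, n = 9). The highest of the controls were the 3 TG_saline libraries, at 15.5, 14.4 and 10.8. Of its relatives, Itpkb had 1329 ± 74.6 in TG_AAV and 1771 ± 250 in the controls, and Itpkc 99.4 ± 8.13 and 110 ± 19.2.

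Pacsin1, an F-BAR protein that bends membranes during synaptic vesicle endocytosis, had the smallest relative spread in TG_AAV hearts among the leading neuronal genes, within counting error. It had 114, 114 and 119 normalized counts in TG_AAV hearts, against a lowest value of 0, a median of 6.63 and a highest of 18.3 in the controls. Its mean of 115 ± 2.81 (SD, n = 3) stood against 7.73 ± 5.49 in the controls (SD, n = 9). Amph, or amphiphysin, which acts in the same endocytic process, had 72.2, 79.7 and 64.4 in TG_AAV hearts, with a lowest value of 7.73, a median of 23.5 and a highest of 31.1 in the controls. Amph was thus present throughout and stood at 3.30 times the control mean, near the lower end of the 64.

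Pdzd4, which encodes a protein with a PDZ domain, had the highest level of the 64 both as a count and per length. Its values were 702, 687 and 708 normalized counts in TG_AAV hearts, against a lowest value of 35.5, a median of 40.7 and a highest of 53.2 in the controls. The means were 699 ± 11.1 (SD, n = 3) and 43.1 ± 6.44 (SD, n = 9), a ratio of 16.2, and the spread within either set was small. Per kilobase of the longest annotated transcript, the TG_AAV level was 176 normalized counts for Pdzd4, 123 for Shisa4, 110 for Pcbd1 and 107 for Pigz.

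Flrt1, a leucine-rich adhesion protein of the neuronal surface, had 225, 470 and 395 normalized counts in TG_AAV hearts, with a lowest value of 11.5, a median of 25.1 and a highest of 39.7 in the controls. TG_AAV 1 was the lowest TG_AAV library by a wide margin, yet above every control. Flrt1 overlaps the gene Macrod1, which averaged 579 in TG_AAV and 1016 in the controls, and the strand setting of the counting is not given in the sources used here. The value of Flrt1 is uncertain to that extent, and a sharing of reads was not tested.

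Pigz adds a mannose to glycosylphosphatidylinositol anchors. Its 231, 234 and 236 normalized counts in TG_AAV hearts had the smallest relative spread of all 64 genes, a spread within counting error. The controls had a lowest value of 12.2, a median of 23.0 and a highest of 33.2. Shisa4, of the Shisa transmembrane family, had 170, 235 and 245 in TG_AAV hearts, against a lowest value of 27.8, a median of 36.5 and a highest of 48.3 in the controls. Ccdc136, a coiled-coil protein, had 185, 213 and 230 in TG_AAV hearts, against a lowest value of 20.6, a median of 40.2 and a highest of 98.5 in the controls. For Shisa4 and Ccdc136 the 3 TG_saline libraries were the highest of the 9 controls, and for Pigz the groups of controls overlapped.

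**Figure D2:**
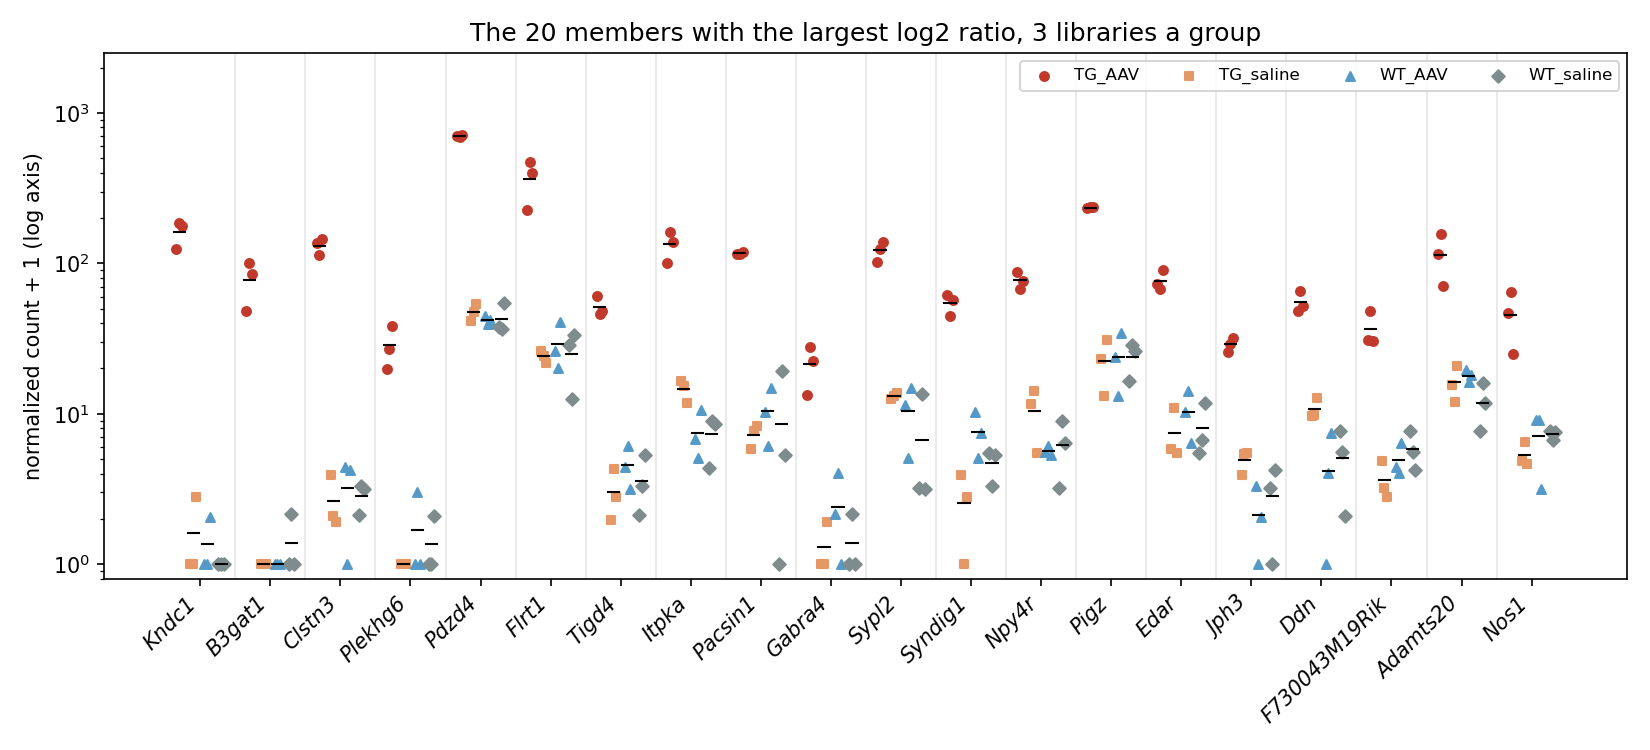
Normalized count plus 1 on a log axis for the 20 genes with the largest log2 ratio, in order of that ratio, with 3 libraries each for TG_AAV, TG_saline, WT_AAV and WT_saline and a black bar at each group's mean. Every TG_AAV point lies above all control points, as the rule required, and for Kndc1, B3gat1, Plekhg6 and Gabra4 most control points lie at 1, which is no read.

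Among the other leading genes of the nervous system, Syndig1, which gathers glutamate receptors at synapses, had 60.5, 43.8 and 55.7 normalized counts in TG_AAV hearts, against a lowest value of 0, a median of 4.06 and a highest of 9.20 in the controls. Npy4r, a receptor for pancreatic polypeptide, had 86.8, 66.8 and 74.8, against 2.22, 5.07 and 13.3 as the lowest, median and highest control. Gabra4, a GABA-A receptor subunit, had 12.4, 26.9 and 21.5, against 0, 0 and 3.04. None of these 3 genes had a control library within 3 times of its lowest TG_AAV library. Gabra4 is at the lower limit of the level rule and its controls held 6 reads in all.

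Ddn encodes dendrin, a protein of dendrites and kidney podocytes. It had 47.4, 64.8 and 50.9 normalized counts in TG_AAV hearts, with a lowest value of 0, a median of 6.43 and a highest of 11.7 in the controls. Jph3, the brain member of the junctophilins that tie the cell membrane to the endoplasmic reticulum, had 24.8, 27.9 and 31.0, against 0, 2.30 and 4.52. For both genes the highest control was TG_saline 3. Nos1, the neuronal nitric oxide synthase, had 45.9, 63.8 and 23.9 in TG_AAV hearts, against 2.14, 5.73 and 8.12, so that its TG_AAV values varied more than those of Ddn or Jph3.

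Also among the leading 20 genes, Sypl2 encodes mitsugumin-29 of the skeletal muscle triad and had 101, 124 and 138 normalized counts in TG_AAV hearts, against a lowest value of 2.17, a median of 11.6 and a highest of 13.9 in the controls. Edar, the ectodysplasin receptor, had 71.5, 66.8 and 89.1, against 4.44, 5.73 and 13.2. Adamts20, a secreted metalloproteinase, had 114, 154 and 69.2, against 6.66, 14.9 and 19.9. The control ranges of these 3 genes were far below the lowest TG_AAV value of each.

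Plekhg6, a guanine nucleotide exchange factor, had 19.0, 25.9 and 37.4 normalized counts in TG_AAV hearts and at most 2.03 in the controls, where 7 of 9 libraries had no read. Its ratio of depth-corrected reads was 77.5, with an interval of 25.8 to 382. Tigd4, a gene related by name to the tigger transposons, had 59.8, 44.8 and 46.9, against 0.967, 2.29 and 5.07 as the lowest, median and highest control. F730043M19Rik, which the annotation leaves without a described role, had 29.9, 46.8 and 29.4, against 1.81, 3.45 and 6.66. All 3 genes were low in every control library.

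By role, 21 of the 64 genes belong to synapses and neuronal signalling, with a median ratio of 7.98 and a range from 3.04 to 501. Roles were assigned by hand after the genes were known, so that the sizes of the groups are a description. Besides those above, this group holds the glutamate receptor subunit Grin2c, the adhesion proteins Slitrk4 and Lgi2, the Src inhibitor Srcin1, the ubiquitin ligase Neurl1a and the reelin receptor Lrp8. The G protein subunit Gng7, the G protein regulator Rgs11 and the X-linked gene Bex1 complete it. These 9 genes were between 3.04 and 5.18 times the control mean, below most of the leading genes.

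The muscle group held Sypl2, the slow skeletal and fetal cardiac troponin Tnni1, the Z-disc protein Myoz1 and the muscle growth factor Fgf6, with a median ratio of 6.85. Tnni1 had 27.7, 29.9 and 36.6 normalized counts in TG_AAV hearts, against a lowest value of 0, a median of 5.36 and a highest of 7.23 in the controls. Myh2, a skeletal muscle myosin, was at 944, 996 and 0.796 in the same 3 TG_AAV libraries. In the controls 4 of 9 libraries were above 1000 and the others at or below 3.04. The skeletal muscle markers Mylpf and Tnnt3 averaged 6.28 and 5.82 in TG_AAV and 5.73 and 5.17 in the controls. Myh1 averaged 24.3 in TG_AAV and 22.9 in the controls, and Cacna1s 272 and 193. The source of the Myh2 reads was not tested. Sypl2 and Tnni1 were highest in the TG_AAV library with the low Myh2 value, and Myoz1 was lowest there, at 15.1 against 21.9 and 27.9.

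Of the enzymes that work on glycans, anchors and lipids, 5 were among the 64, with a median ratio of 5.08. These are B3gat1 and Pigz, the ganglioside enzyme St8sia1, the fucosyltransferase Fut2 and the brain carnitine palmitoyltransferase Cpt1c. Cpt1c had 131, 140 and 139 normalized counts in TG_AAV hearts, against a lowest value of 25.5, a median of 41.6 and a highest of 60.0 in the controls. Its coefficient of variation over the TG_AAV libraries was 3.65%, against 2.44% for Pacsin1, and both lie within counting error.

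Another 5 genes act in small-molecule metabolism or protein modification, with a median ratio of 5.11. They are the aldolase Aldoc, the mitochondrial folate enzyme Mthfd2, the cytidine deaminase Cda, the pterin dehydratase Pcbd1 and the arginine deiminase Padi2. Receptors, adaptors and immune signalling proteins numbered 8, with a median ratio of 3.50. Besides Edar and Plekhg6 they are the cytokine receptor chain Il17re, the ubiquitin ligase Peli3, the innate immune regulator Nlrc3, the adaptor Dok5, the tetraspanin Tspan33 and the cadherin Cdh24.

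The secreted proteins Adamts20, Apod, Ism1 and Fstl3 had a median ratio of 3.49. Apod, a lipid-carrying lipocalin, was the highest of them, with 163, 115 and 198 normalized counts in TG_AAV hearts, against a lowest value of 31.1, a median of 40.6 and a highest of 65.1 in the controls. Fstl3, an antagonist of activin, was at 125 ± 14.6 in TG_AAV (SD, n = 3) and 40.4 ± 11.1 in the controls (SD, n = 9). The calcium-binding proteins Cib2 and Efhd1 were at 5.37 and 3.22 times the control mean.

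No role is given here for 15 genes, whose median ratio was 4.21. Besides Pdzd4, Tigd4, Shisa4, Ccdc136 and F730043M19Rik they are Clec2l, Ttyh1, Cgref1, Cuzd1, Hid1, Map3k7cl, Fam131c, Tceal7, 1500009L16Rik and 2200002D01Rik. Hid1 stood at 3.06 and Tigd4 at 18.6 times the control mean, the ends of this group.

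Within TG_AAV the genes did not move as a block. The coefficient of variation across the 3 libraries had a median of 18.8% and ran from 0.944% for Pigz to 49.2% for Tceal7, and 9 genes differed by at least 2 times between their highest and lowest TG_AAV library. These coefficients include counting error, which is larger than the smallest of them, so the order of genes by evenness is only a description. TG_AAV 1 was the lowest library for 28 genes, TG_AAV 2 for 23 and TG_AAV 3 for 13. Kndc1, B3gat1, Flrt1 and Gabra4 were lowest in TG_AAV 1, whereas Nos1 and Adamts20 were lowest in TG_AAV 3.

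Just inside the thresholds, Ccdc136 had a control mean of 49.7 and Neurl1a 43.9, while Eps8l2 at 50.1 and Pdzd3 at 56.0 were just outside. For the level in TG_AAV hearts, Gabra4 at 20.3 and Tceal7 at 20.7 were inside, and Klrg2 at 19.1 and Insl6 at 18.9 outside. Srcin1 at 3.04 times and Hid1 at 3.06 times the control mean were inside, and Dnaic1 at 2.99 and Sel1l3 at 2.94 outside. The condition on single libraries was met narrowly by Gng7, whose lowest TG_AAV value was 74.0 against a highest control of 73.2, and by Fut2 at 16.7 against 14.2. It was missed by Eppk1 at 37.9 against 38.0 and by Asb16 at 18.2 against 19.0.

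A fit across genes was made on log2(normalized count + 1) with limma, over the 13030 genes with a mean of at least 10 over all 12 libraries. Of the 64 genes, 56 passed this filter, and Plekhg6, Gabra4, Jph3, Aldoc, Fgf6, Myoz1, Tceal7 and 2200002D01Rik did not. Of the 56, 22 had a mean under 10 in the 9 controls and passed through their TG_AAV values, whereas 34 had a control mean of 10 or more. In TG_AAV against the 9 controls, 12% of the tested genes were called higher and 9.69% lower at an adjusted p under 0.05, and all 56 were among those called higher. This count follows from the rule, as does the position of all 3 TG_AAV values above all 9 controls, which 10.2% of all tested genes shared, and nothing is read from either.

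The control groups give comparisons that the rule did not use. In TG_saline against WT_saline, the transgene alone, none of the 56 genes was called, and limma called 0.0844% of all tested genes higher and 0.0153% lower. Counts below are over the 34 genes with a control mean of 10 or more, set beside the 2233 tested genes with a control mean of 10 to 50, a restriction added after the data had been seen. At an unadjusted p under 0.05, 13 of the 34 were higher in TG_saline and none lower, where 6.36% of the 2233 genes were higher and 3.05% lower. The median log2 change was 0.49 for the 34 genes and 0.01 for the 2233. The list was chosen with results of these libraries known, so this is a description of the 34 genes and no test of them as a set.

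Neurl1a, which had the smallest p of the 56 in that comparison, had 57.0, 79.5 and 93.1 normalized counts in TG_saline hearts, against a lowest value of 11.1, a median of 29.6 and a highest of 38.6 in the 6 wild-type libraries. In TG_AAV hearts it had 133, 159 and 134, so that the 3 sets did not overlap. Its log2 change in TG_saline against WT_saline was 1.76 with a standard error of 0.34, and limma's adjusted p was 0.0552, which misses the threshold. It passed by edgeR on the recovered reads, with an adjusted p of 0.0490, as the only one of the 34 to be called higher where 0.313% of the 2233 genes were. By DESeq2 its adjusted p was 8.03e-05, and 7 of the 34 were called higher where 1.07% of the 2233 genes were, namely Bex1, Ccdc136, Gng7, Il17re, Neurl1a, Pcbd1 and Tspan33. Over the 27 alternatives the adjusted p of Neurl1a ran from 8.03e-05 to 0.253, and 8 of them called it. The 27 include the comparison of TG_saline with both wild-type groups given below, which by limma gave 0.0307 and is among the 8. Without WT_saline 2, limma called Gng7, Il17re, Neurl1a and Pcbd1 among the 34. Without WT_saline 1 or TG_saline 1 it called Fam131c or Tspan33. Fam131c had a control mean of 5.23 and is not among the 34. The shares of the 2233 genes called in these fits are not given here, so nothing is read from the number of calls.

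Gng7 had 46.4, 68.5 and 73.2 normalized counts in TG_saline hearts, against a lowest value of 6.51, a median of 16.2 and a highest of 32.1 in the wild-type libraries. Its TG_AAV values of 123, 109 and 74.0 began barely above the highest TG_saline value, and the ratio of the TG_AAV to the TG_saline mean was 1.63, against 3.78 for TG_saline over the wild-type mean. On the ratio scale the step between wild-type and TG_saline hearts was thus the larger one. Among the 34 genes this also held for Neurl1a, at 2.77 against 1.86, and for Pcbd1, Bex1, Il17re, Tspan33 and Cib2, while most of the 34 went the other way. The log2 change in TG_saline against WT_saline was 2.27 with a standard error of 0.45, and limma's adjusted p was 0.0588, from 0.00113 to 0.284 over the alternatives.

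Other genes had their TG_saline values between those of TG_AAV and wild-type hearts. Pcbd1 had 23.2, 42.0 and 36.1 normalized counts in TG_saline hearts and at most 20.6 in the wild-type libraries, and Bex1 had 20.3, 15.5 and 30.7 against at most 11.1. Their log2 changes against WT_saline were 2.21 and 1.94, with an adjusted p of 0.149 each by limma. Ccdc136 had 55.1, 65.2 and 98.5 in TG_saline hearts and at most 54.7 in the wild-type libraries, with a log2 change of 1.20 and an adjusted p of 0.0782 by limma. All 3 TG_saline values lay above all 6 wild-type values for 7 of the 34 genes, where 4.39% of the 2233 genes did so. The 7 are Bex1, Ccdc136, Cib2, Gng7, Neurl1a, Pcbd1 and Shisa4, and all 3 lay below for none of the 34, where 1.75% of the 2233 genes did so.

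Several of the leading genes lay within the wild-type range in TG_saline hearts or close to 0. Kndc1, B3gat1 and Clstn3 were at 1.81, 0 and 2.90 or below in TG_saline hearts, and Pdzd4 had 40.6, 46.4 and 52.4 there, within the range of the wild-type libraries. Syndig1 lay the other way, with 2.90, 0 and 1.81 in TG_saline hearts against a lowest value of 2.29, a median of 4.39 and a highest of 9.20 in the wild-type libraries. Syndig1 had a control mean of 3.94 and passed the filter through its TG_AAV values, so no test of this difference is read here.

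**Figure D3:**
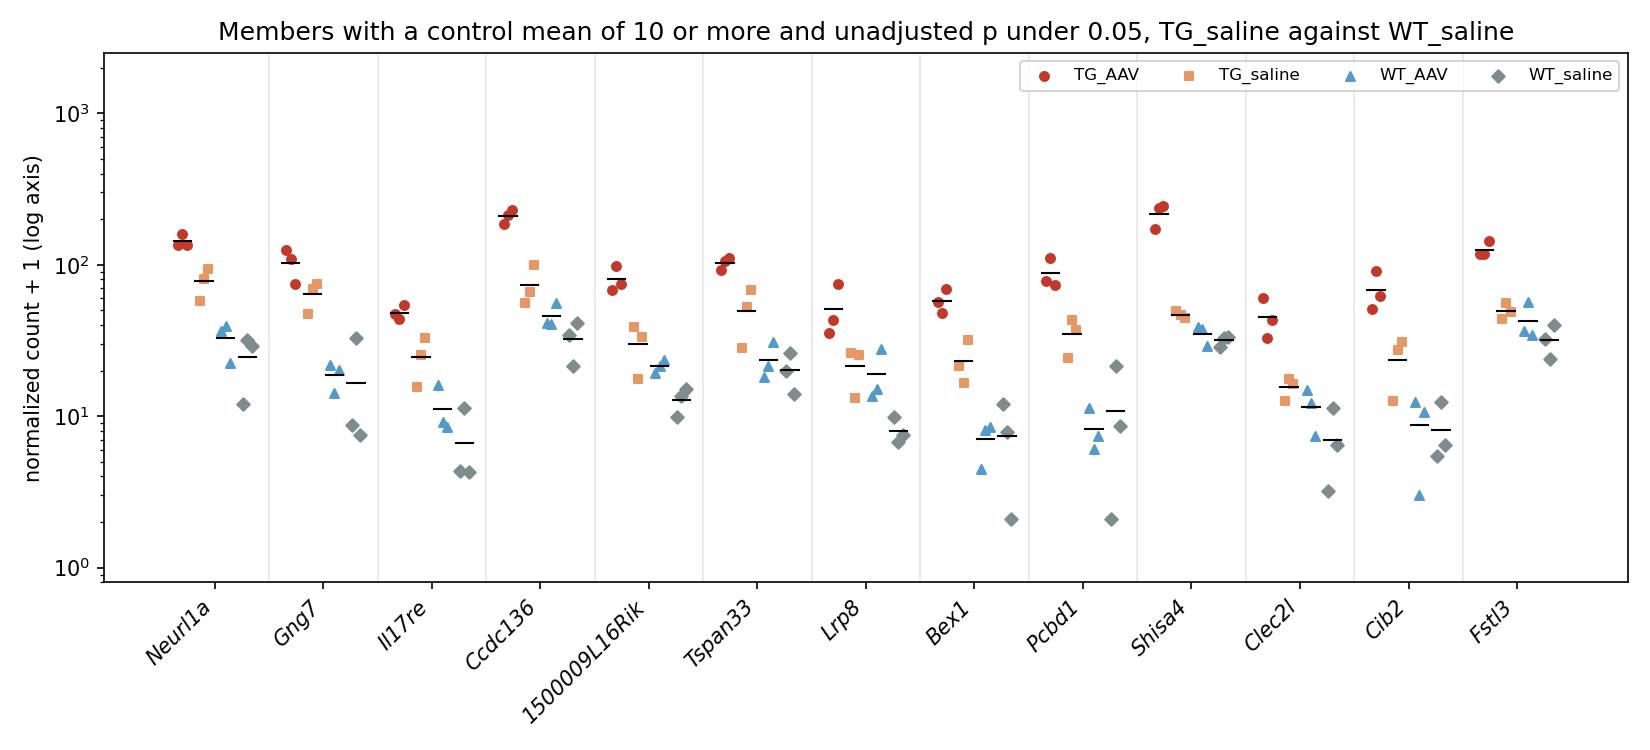
Normalized count plus 1 on a log axis for the 13 of the 34 genes with an unadjusted p under 0.05 in TG_saline against WT_saline by limma, in order of p, with 3 libraries a group and a black bar at each group's mean. For Neurl1a, Gng7, Bex1, Ccdc136, Cib2, Pcbd1 and Shisa4 the TG_saline points lie between those of TG_AAV and those of the 6 wild-type libraries.

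When TG_saline was set against both wild-type groups together, a comparison added after the data had been seen, 1.03% of the 2233 genes were called higher by limma and 2 of the 34 were among them. These are Gng7 and Neurl1a, each with an adjusted p of 0.0307, and their log2 changes were 2.02 and 1.51. The median log2 change of the 34 genes in this comparison was 0.35, against 0.01 for the 2233 genes.

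In WT_AAV against WT_saline, the vector alone, limma called none of the 13030 genes, a share of 0%, and so none of the 56. At an unadjusted p under 0.05 the number was 514 over all tested genes, and by count models edgeR called 0 and DESeq2 11. Among the 34 genes, 2 were higher at that unadjusted p, namely 1500009L16Rik and Lrp8, and none was lower, where 3.36% of the 2233 genes were higher and 1.84% lower. The median log2 change of the 34 was 0.22, against 0.0031 for the 2233 genes. A fit without WT_saline 3, WT_AAV 2 and WT_AAV 3 leaves WT_AAV with 1 library, which is assumed to vary like the other groups, so its calls are not read here. The comparisons of the vector alone and of the transgene alone share the 3 WT_saline libraries, so their values stand side by side without being compared.

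All 3 WT_AAV values lay above all 3 WT_saline values for 3 of the 34 genes, where 4.16% of the 2233 genes did so. These are 1500009L16Rik, Adamts20 and Lrp8. Adamts20 had a log2 change of 0.66 with a standard error of 0.34, and Lrp8 one of 1.18 with a standard error of 0.38. Neither passed after adjustment over all tested genes by limma.

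**Figure D4:**
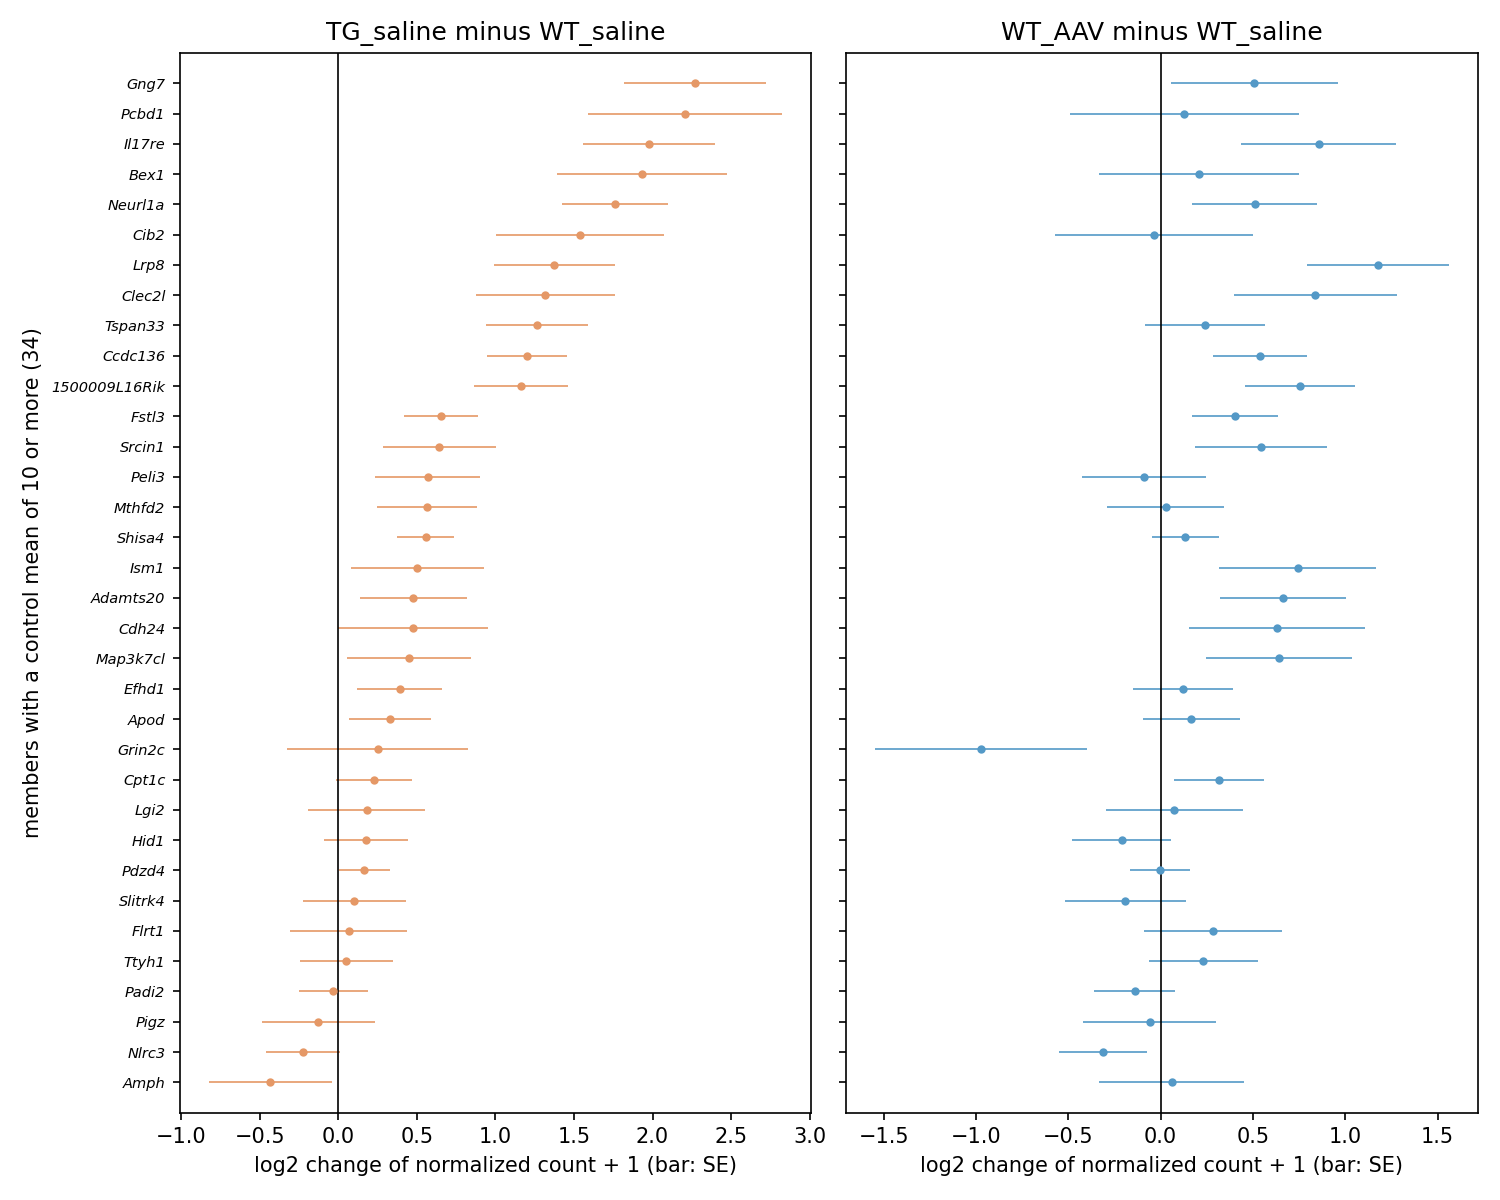
Log2 change of the normalized count plus 1 for the 34 genes with a control mean of 10 or more in TG_saline against WT_saline (left) and WT_AAV against WT_saline (right), as points with bars of 1 standard error from limma, in the order of the left panel. Most points lie right of 0 on the left, with Amph lowest, and the 2 panels share the WT_saline libraries.

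Genes related in function were taken from lists built around the leading genes, with earlier results of these data known. Of 13 tested presynaptic release genes, none of them among the 64, 5 were higher and 3 lower in TG_AAV against the 9 controls by limma after adjustment. Among them, Sv2b was higher by a log2 change of 1.06 and Syn2 by 0.95, and Slc17a7 and Rab3a by 0.82 and 0.31. Unc13a fell by 2.00 on the log2 scale, Pclo by 1.20 and Sv2a by 0.90. The list had a median log2 change of -0.15, against -0.0031 for all tested genes.

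Of 20 tested postsynaptic and adhesion genes besides the 64, 4 were higher and 3 lower, with a median log2 change of -0.05. Camk2b, a subunit of the calcium/calmodulin kinase, was at 740 ± 54.5 normalized counts in TG_AAV (SD, n = 3) and 198 ± 50.1 in the controls (SD, n = 9), and Shank1, Nlgn2 and Clstn1 were also higher. Among those lower, Arc and Shank3 fell by 0.83 and 0.62 on the log2 scale. Of 18 tested genes of endocytosis, Ap2b1, Pacsin3 and Bin1 were higher and Trip10 lower, with a median of 0.02.

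Of 15 tested inositol phosphate kinases and IP3 receptors besides Itpka, Ip6k3 was higher, and Itpkb and Ppip5k2 were lower, with a median of 0.08. In the HNK-1 pathway, the adhesion molecule Ncam1, a carrier of that glycan, was higher by a log2 change of 0.73, the other 2 tested genes did not pass, and the median was 0.49. Of 9 tested relatives of the leading genes, Clstn1, Pacsin3 and Pdzrn3 were higher and Itpkb lower, with a median of -0.05. Of these, the sister enzyme B3gat3 was at 332 ± 2.65 in TG_AAV (SD, n = 3) and 329 ± 17.2 in the controls (SD, n = 9).

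Markers of the cells that normally express such genes moved as follows. In bulk tissue, a change in the number of cells of a type and in the RNA of each cell cannot be told apart. Of 16 neuron markers 4 were tested, of which Uchl1 was higher by a log2 change of 1.52 and the sympathetic enzyme Dbh fell by 2.13 on the log2 scale. Their summed level was 381 to 399 normalized counts in TG_AAV, 270 to 283 in TG_saline, 257 to 270 in WT_AAV and 232 to 295 in WT_saline, and Chat, the marker of cholinergic neurons, was at 0 in every library. Uchl1 alone averaged 209 in TG_AAV and 75.6 in the 9 controls, a difference larger than that between the mean sums of the whole list. Of the other tested markers, Map2 averaged 114 in TG_AAV and 96.9 in the controls, Stmn2 37.4 and 40.1, and Dbh 7.01 and 34.3. Their part in the levels of the 64 genes was not tested. None of 8 tested Schwann cell markers passed, and their sum was 852 to 856 in TG_AAV hearts and 738 to 1059 in the controls.

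All 10 ventricular muscle markers were well detected, and 4 were lower and none higher in TG_AAV against the 9 controls. Of 10 tested fibroblast markers, 4 were higher and none lower. Of 10 tested endothelial markers 3 were lower, and of 7 atrial, 6 epicardial and 3 adipocyte markers 1 each. None of 8 mural, 11 macrophage and 2 erythrocyte markers passed, 1 of 5 skeletal muscle markers was higher, and no lymphocyte or neutrophil marker reached the filter. The part of these shifts in the levels of the 64 genes was not tested.

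On the chromosomes, 63 of the 64 genes had a RefSeq protein-coding entry, spread over 18 chromosomes with 9 on chromosome 6 and 6 on chromosome 7. No pair of them were next neighbours. Of 82 tested neighbours, 19.5% were called higher and 7.32% lower in TG_AAV against the controls, against 12% and 9.69% of all tested genes. The neighbours' median log2 change was 0.06. Another gene overlaps 23 of the 64, and a protein-coding one overlaps Fstl3, Flrt1, Sypl2, Gabra4, 2200002D01Rik, Cib2 and Bex1, so that their reads could be shared if the counting ignored strand. The longest transcripts had a median of 3340 bases and 53.8% GC, against 3492 bases and 49.7% for all tested genes. For the tested genes with a control mean under 50 the medians were 2840 bases and 50.2%, so the direction in length depends on the background.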

How the data were processed

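RNA of 12 ventricle libraries was analysed, 3 in each of 4 groups taken from the sample titles. The authors deposited normalized counts per gene symbol, a signal in which each library's read counts are divided by its own size factor. The submitters' processing notes name Bowtie2 2.0, DESeq2 and the build mm9, whereas their roles, the annotation, the counter and the strand setting are not stated in those notes. Whole reads were recovered by dividing each column by its step, and 100% of the positive values of each library were within 0.01 of a whole read. Totals ran from 10233281 to 14911986 reads, and intervals from reads cover counting error only. Of the 24390 symbols, 5583 were at 0 throughout and 27 had become dates.

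Values were tested as log2(normalized count + 1), which understates changes of low genes, with limma 3.58.1 (R 4.3.3), its variance trend, and group means from 1 fit of all 12 libraries. Genes with a mean of 10 or more were tested, 13030 in all, two-sided, with Benjamini-Hochberg adjustment over all of them and a threshold of 0.05. The contrasts were TG_AAV minus the average of the 3 control groups, the transgene alone and the vector alone. The fit was tested on simulated data. Alternatives were other pseudocounts, filters, scalings and thresholds, a replicate block, omission of each library, and edgeR 4.0.16 and DESeq2 1.42.0 on recovered reads. 5 alternatives were added after the data had been seen. Full values were given for the markers, the 20 genes of largest log2 ratio, the 5 of highest TG_AAV mean and members of the gene lists. Some genes of the lists are counted but not reported by name here. Values of other genes, Neurl1a and Gng7 among them, were chosen after they were seen. The 64 genes and the lists were chosen with earlier results of these data known. Names, neighbours and promoters came from RefSeq on GRCm38.p6 and lengths from GENCODE M21, another build than the authors', so no coordinates were carried over.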

Additional observations from a re-analysis of the deposited data

How the results depend on the processing

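Thresholds set the size of the list: 116 genes met a ratio of 2 and 31 a ratio of 5, while the other thresholds gave 45 to 83 and omission of single libraries 57 to 74. Between TG_AAV and the controls, 2830 genes were called, 1710 without the 3 libraries rich in Myl7, and 1618 to 3161 when single libraries were left out. The 0 genes called for the vector alone became 1 with no filter, 11 by DESeq2, 4 without the libraries rich in Myl7 and 45 without WT_saline 3, WT_AAV 2 and WT_AAV 3, with 0 to 2 when single libraries were left out. The fits without the libraries rich in Myl7 and without those 3 wild-type libraries leave WT_AAV with 1 library, so their counts are not read as results. In the other settings no tested member was called there. The 13 genes called for the transgene alone became 36 with TMM scaling, 38 with a robust variance, 32 with a replicate block, 3 with only the groups compared, 36 by edgeR, 214 by DESeq2, 4 without the libraries rich in Myl7, 27 without the 3 wild-type libraries, 20 with a term for Xist and 173 against both wild-type groups, with 0 to 40 when single libraries were left out. Of the 56 members, 0 were called in the main analysis of the transgene alone. The number was 1 with TMM scaling, 1 with a robust variance, 2 with the replicate block, 1 by edgeR and 7 by DESeq2. It was 2 against both wild-type groups, and 0 to 4 when single libraries were left out. The calls with the block, by edgeR, by DESeq2 and against both wild-type groups were among the 34 with a control mean of 10 or more. The other 22 passed the filter through their TG_AAV values, so a call of theirs, such as that of Fam131c, is not read as a result. The 2 members with the block were Neurl1a and Ccdc136. To see whether replicate numbers pair the samples, each gene's log2 value was taken as its deviation from the mean of its group. These deviations, and not the levels themselves, were correlated between libraries of different groups. For same-numbered libraries the median correlation was 0.09, from -0.16 to 0.33, with 8 of 18 pairs over 0.1. For differently numbered ones it was -0.06, with 8 of 36 pairs over 0.1. Not every same-numbered pair passed 0.1, so the numbers were not taken to pair the samples. The Mef2d ratio ran from 1.99 to 2.16. The cause of these shifts was not tested. Genes with few control reads, such as Kndc1 and B3gat1, have ratios limited by those reads.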
